A study of Homo sapiens and Mus musculus with 7 samples.

Results

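The genes described here are the 10 central regulators of G1, chosen by symbol as rows of the expression table: the D-type cyclin genes CCND1, CCND2 and CCND3, their kinase genes CDK4 and CDK6, the E-type cyclin gene CCNE1, the inhibitor genes CDKN1A and CDKN1B, and the transcription factor genes E2F1 and E2F2. All 10 were present among 14903 genes. RNA was sequenced from HEL cells, an established line of human erythroleukaemia cells, in which KAP1 was either knocked down or wild type, and either without hemin or after 5 days in 50 µM hemin, a haem compound that pushes these cells towards red cell features. KAP1, the product of TRIM28, is brought to DNA by KRAB zinc finger proteins and represses transcription; the sources used here do not give the knockdown method. Each of the 4 groups (control without hemin, control with hemin, knockdown without hemin, knockdown with hemin) was 1 library from 250 ng of total RNA, so no difference below has a replicate check and no p-value is given. Columns headed Ctrl in the table were taken as the KAP1 WT samples, the only HEL genotype besides the knockdown, and every knockdown ratio rests on that match. The series also holds 3 chromatin libraries from mouse erythroblasts, not used here.

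In G1, D-type cyclins bind CDK4 or CDK6 and phosphorylate the retinoblastoma protein RB1, which releases E2F transcription factors to switch on the genes of DNA replication. Cyclin E with CDK2 then completes the phosphorylation, while p21 (CDKN1A) and p27 (CDKN1B) bind and restrain cyclin-CDK2 complexes. In the red cell lineage, cyclin D3 and CDK6 act in the last divisions of erythroblasts, and E2F2 is needed for orderly exit from the cell cycle as they mature.

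E2F1 and E2F2, both at least 2-fold higher after knockdown in either hemin state, are shown with the bases before their transcription starts, because E2F factors are known to act on E2F gene promoters. The sequences are from RefSeq on GRCh38.p14, 5′ to 3′ along the gene, 250 bases ending just before the start; capitals mark the E2F-type words TTTGGCGC and TTTCGCGC, searched on both strands. The E2F1 window is chr20:33686386-33686635 and the E2F2 window chr1:23531234-23531483, both on the minus strand.
E2F1: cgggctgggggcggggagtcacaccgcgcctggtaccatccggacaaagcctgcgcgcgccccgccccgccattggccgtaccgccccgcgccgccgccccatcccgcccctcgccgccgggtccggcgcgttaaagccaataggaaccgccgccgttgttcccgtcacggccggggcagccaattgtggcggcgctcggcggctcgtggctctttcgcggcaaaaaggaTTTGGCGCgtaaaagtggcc
E2F2: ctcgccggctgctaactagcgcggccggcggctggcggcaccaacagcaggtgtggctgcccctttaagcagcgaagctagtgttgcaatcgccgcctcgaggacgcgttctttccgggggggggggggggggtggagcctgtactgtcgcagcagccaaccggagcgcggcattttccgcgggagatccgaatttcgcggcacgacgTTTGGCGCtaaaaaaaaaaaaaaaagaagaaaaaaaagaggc
The word TTTGGCGC began 20 bases before the start of E2F1 and 42 before that of E2F2, and 0.968% of 35116 windows of this length held an E2F-type word. RefSeq windows matched 8 of the 10 genes, 11 windows in all (3 for CCND3 and 2 for CDK6); CCND1 and CCND2 were not matched. The other 9 windows held no E2F-type word, which says only that these letters are not there. CDK4 is shown for contrast, since its level was the steadiest of the 10; its window is chr12:57752311-57752560 on the minus strand, and capitals mark the E-box CACGTG, a word bound by MYC family proteins.
CDK4: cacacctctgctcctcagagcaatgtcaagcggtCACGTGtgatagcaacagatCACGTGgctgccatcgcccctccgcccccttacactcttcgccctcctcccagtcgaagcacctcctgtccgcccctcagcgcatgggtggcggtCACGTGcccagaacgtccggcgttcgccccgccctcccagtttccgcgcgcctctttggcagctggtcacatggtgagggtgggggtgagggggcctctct
It held 3 E-boxes, at 216, 196 and 101 bases before the start, and none of the other 10 windows held any, where 6.34% of all windows did. CDKN1A, with the widest range over the libraries, lies on the plus strand with its window at chr6:36678464-36678713, and capitals mark the GC box GGGCGG on either strand.
CDKN1A: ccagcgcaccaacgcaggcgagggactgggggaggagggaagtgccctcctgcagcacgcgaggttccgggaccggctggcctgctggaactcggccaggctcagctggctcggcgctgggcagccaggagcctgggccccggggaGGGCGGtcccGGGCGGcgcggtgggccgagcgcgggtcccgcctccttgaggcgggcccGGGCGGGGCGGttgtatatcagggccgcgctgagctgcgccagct
Its 4 GC boxes, of which the 2 nearest to the start overlap, stand beside 42.6% of all windows with at least 1. They are not particular to CDKN1A: CCNE1 had 7, E2F1 5, and CCND3, CDK4, CDK6 and CDKN1B also had GC boxes. E2F2 had none. CCAAT boxes, also searched, were found for CCND3, CDKN1B and E2F1, where 32% of all windows held any. These matches are a description and not a test of binding.

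Reads on the chosen transcripts numbered from 23524250 in the knockdown without hemin to 41201705 in the knockdown with hemin. TRIM28 was lower in both knockdown libraries, at 317 scaled TPM (transcript level per length, scaled for depth as described with the processing) against 421 without hemin and 190 against 400 with hemin, log2 ratios of -0.41 and -1.07. Its row is among 5 deposited as whole numbers, whose reads could not be recovered, so it checks the labels only weakly. As deposited, the values were 5013 and 5315 in the controls without and with hemin, and 2523 and 2934 in the knockdowns. Whether this row carries length or depth as the others do is not known, so the sizes of its 2 log2 ratios depend on the scaling. Erythroid markers were present in every library (12 of 12 at a floor of 5 scaled TPM or more, summed 16136.5 to 75920). Of 8 megakaryocytic markers, 7 reached the floor in their highest library and 5 in every library (summed 1260 to 2585, mostly ITGA2B). Of these 7, 5 were at least 2-fold lower with hemin in control cells (median log2 ratio -1.16) and 4 at least 2-fold higher after knockdown with hemin (median 1.57), among them PF4 at 2.20 and PPBP at 2.02. After knockdown without hemin 0 of 7 were higher and 1 lower (median -0.62). Over all genes 2.59% were lower with hemin in control cells and 6.01% higher after knockdown with hemin. After knockdown 6.73% were higher without hemin, and 6.42% and 4.12% lower without and with hemin. Myeloid, mast cell and eosinophil markers summed to 1581 and 929 in the control libraries and to 79.7 and 116 in the knockdown libraries (8 of 10 listed genes in the table, 6 at the floor, 5 of those at least 2-fold lower in both states). PRG2, an eosinophil granule gene, made up most of it, at 1345 and 647 in the controls and 6.82 and 10.6 in the knockdowns. Lymphoid markers (3 of 8 in the table) summed to 88.4 to 154 and fibroblast and epithelial markers (3 of 7) to 29.2 to 90.4. RNAs without a poly-A tail summed to 494 and 1157 in the controls without and with hemin, and to 334 and 1827 in the knockdowns. In the pair without hemin, the median log2 ratio of knockdown over control was 0.28 for the 10% of genes with the shortest transcripts and -0.21 for the 10% with the longest; with hemin it was 0.19 and -0.07. What part marker, poly-A and length differences have in the ratios below was not tested. Member ratios with the length trend removed are given where the sign turns or the value moves by over 1.5 times, and for some others. Medians of gene lists are not given in that form.

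**Figure D1:**
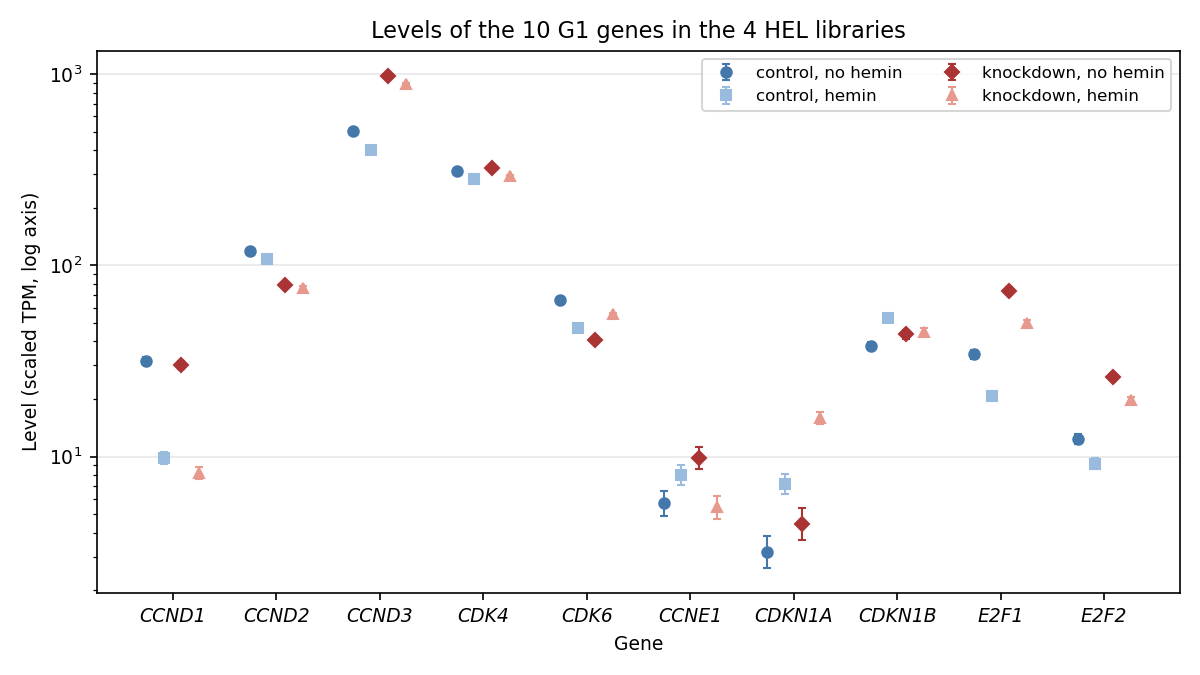
Levels of the 10 genes in scaled TPM on a log axis, 1 point per library, with bars for the 95% Poisson counting interval. CCND3 lay at the top between 402 and 972, and CDKN1A moved most, between 3.17 and 15.9.

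CCND3 was the most abundant of the 10 transcripts in every library and CDK4 came next, ahead of CCND2. In the control without hemin the order went on from CCND3 (503 scaled TPM), CDK4 (310) and CCND2 (119) to CDK6 (66.0), CDKN1B (37.8), E2F1 (34.2), CCND1 (31.7), E2F2 (12.4), CCNE1 (5.70) and CDKN1A (3.17). CDKN1B and E2F1, and E2F1 and CCND1, had overlapping counting intervals there. In the knockdown with hemin the order ended differently: E2F2 (19.7) was followed by CDKN1A (15.9), CCND1 (8.21) and CCNE1 (5.42). CCNE1 and CDKN1A rest on few reads, 178 to 286 and 110 to 725 per library, against 15348 to 39177 for CCND3. Ranges over the 4 libraries ran from 1.14-fold for CDK4 to 5.0-fold for CDKN1A, with CCND1 at 3.87-fold and E2F1 at 3.55-fold.

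Knockdown was compared with control in each hemin state; these comparisons share no library. Higher by at least 2-fold without hemin were E2F1 and E2F2, 2 of the 9 members at the floor of 5 scaled TPM, where 6.73% of 10869 genes were. With hemin CCND3, CDKN1A, E2F1 and E2F2 were, 4 of 10, where 6.01% of 10893 genes were. At least 2-fold lower were 0 members in either state, where 6.42% and 4.12% of genes were. Over all genes that is 731 higher against 698 lower without hemin and 655 against 449 with it; plain totals gave 960 against 517 and 822 against 363, since they put the median of all genes at 0.14 and 0.11 in place of 0.03 and 0.01. The members' median log2 ratio was 0.20 without and 0.14 with hemin. In bulk RNA a smaller share of cells expressing a gene and less RNA per cell cannot be told apart. Log2 ratios use scaled TPM plus 0.5, and the 95% intervals beside them are exact conditional binomial intervals of the reads alone, which cover counting error only.

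E2F1, an activator of S-phase genes, was at 34.2 scaled TPM in the control and 73.6 in the knockdown without hemin, and at 20.7 and 50.1 with hemin. The log2 ratios were 1.10 (1.01 to 1.20) and 1.26 (1.17 to 1.38), so both knockdown libraries were above both control libraries. E2F2, its close relative, was at 12.4 and 26.1 without hemin and at 9.17 and 19.7 with hemin. Its log2 ratios were 1.04 (0.96 to 1.19) and 1.06 (0.99 to 1.22), again with no overlap between genotypes. What share of all genes separates the genotypes in this way was not counted. For E2F1, E2F2 and the genes below, such separation is therefore a description only. The ratio of E2F1 to E2F2 levels stayed between 2.26 and 2.82 in the 4 libraries, while their sum went from 29.9 in the control with hemin to 99.6 in the knockdown without it. E2F2 lies close to the 2-fold limit: with a pseudocount of 2 its log2 ratios were 0.96 and 0.96.

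The D-type cyclins went different ways after knockdown. CCND3, the D cyclin of erythroid and lymphoid cells, was at 503 and 402 scaled TPM in the controls without and with hemin and at 972 and 890 in the knockdowns. Its log2 ratios were 0.95 (0.92 to 0.98) and 1.15 (1.12 to 1.17), just under and just over 2-fold; with plain library totals the first was 1.06 and past the limit, and with the length trend removed it was 0.84. The 4 CCND3 transcripts in the table, which share most of their reads, gave 0.83 to 0.95 without and 1.13 to 1.15 with hemin. CCND2 was at 119 and 108 in the controls and at 78.9 and 76.5 in the knockdowns, log2 ratios of -0.59 and -0.49, so both knockdown libraries were below both controls. Its transcript is longer than those of 92.2% of genes, and with the length trend removed the ratios were -0.35 and -0.44. An antisense gene overlaps it, and no source used here states the strand of the counting, so their reads cannot be told apart. CCND1 was at 31.7 and 9.86 in the controls and at 30.1 and 8.21 in the knockdowns, log2 ratios of -0.08 (-0.17 to 0.02) and -0.25 (-0.41 to -0.12). The value without hemin was within counting error of 0, with plain totals it was 0.03, and with the length trend removed 0.01.

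**Figure D2:**
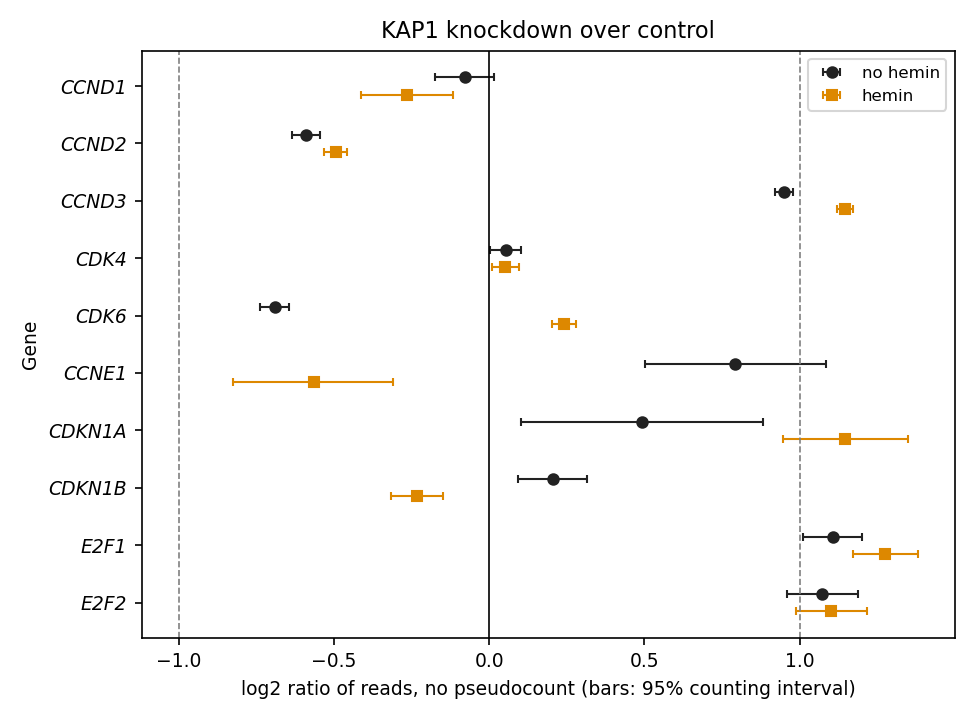
Log2 ratio of knockdown over control for each gene (x axis), without hemin (circles) and with hemin (squares), from reads without a pseudocount; bars are 95% counting intervals and dashed lines mark 2-fold. E2F1, E2F2 and CCND3 lie at the right in both states, and CDK6, CCNE1 and CDKN1B lie on opposite sides of 0.

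Summed per length, D cyclin transcripts were at 654 and 520 scaled TPM in the controls and at 1081 and 975 in the knockdowns. CCND3 made up 77.0% and 77.4% of the sum in the controls and 89.9% and 91.3% in the knockdowns. CCND2 made up 18.2% and 20.7% in the controls and 7.30% and 7.84% in the knockdowns. CCND1 was the smallest part in each library, at 4.86% and 2.78% without hemin and 1.90% and 0.84% with it, control before knockdown. Between genotypes the CCND3 and CCND2 shares do not overlap, while CCND1 had a smaller share with hemin in each genotype. The shares are parts of 1 sum, so a larger CCND3 share makes the others smaller. They were not corrected for the length trend. In knockdown over control without hemin, its median was 0.11 at the length of CCND3 and -0.23 at that of CCND2.

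**Figure D3:**
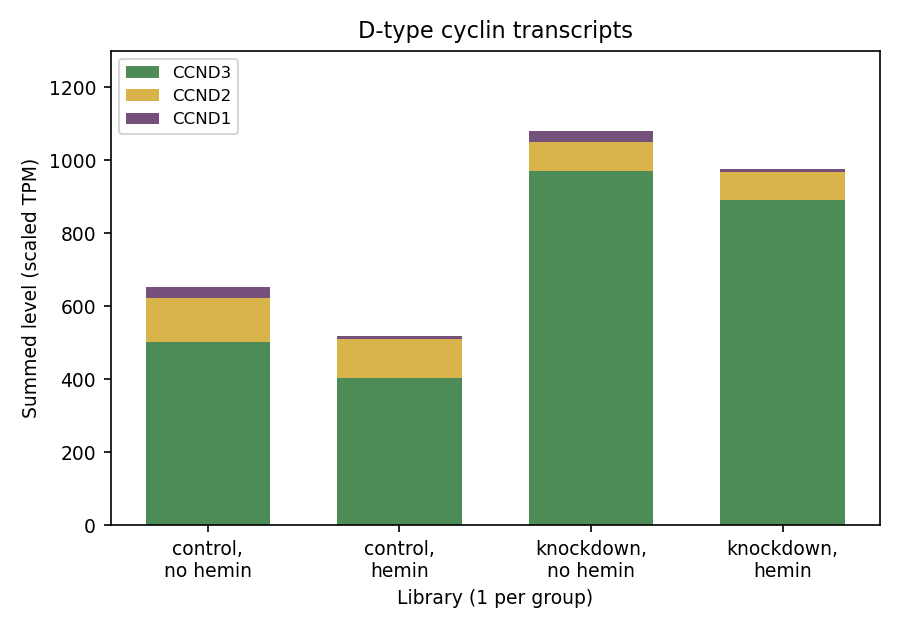
Summed level of the 3 D-type cyclin transcripts in scaled TPM, 1 bar per library, stacked by gene. Both knockdown bars are taller than both control bars, and the CCND3 part makes up 89.9% and 91.3% of them.

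The kinases differed less. CDK4, the main partner of D cyclins by level here, was at 310 and 282 scaled TPM in the controls and at 322 and 292 in the knockdowns, a log2 ratio of 0.05 in both states. Its direction turned with the length trend removed, to -0.14 without hemin against 0.01 with it, so CDK4 has no settled direction. CDK6 was at 66.0 in the control and 40.9 in the knockdown without hemin, a log2 ratio of -0.69 (-0.74 to -0.64), and at 46.9 and 55.4 with hemin, a ratio of 0.24 (0.20 to 0.28). Its transcript is longer than those of 99.3% of genes, and genes of such length had a median of -0.24 in the pair without hemin. With the length trend removed CDK6 had -0.44 and 0.33. An antisense gene also overlaps the first bases of CDK6. CDK4 exceeded CDK6 by 4.70-fold and 6.0-fold in the controls and by 7.87-fold and 5.27-fold in the knockdowns, without and with hemin.

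Cyclin E and the inhibitors showed no shared direction. CCNE1 was at 5.70 in the control and 9.87 in the knockdown without hemin, a log2 ratio of 0.74 (0.50 to 1.08), and at 8.02 and 5.42 with hemin, a ratio of -0.53 (-0.82 to -0.31). The libraries of the genotypes overlapped. CDKN1A was at 3.17 and 4.46 without hemin, under the floor in both, with a log2 ratio of 0.43 (0.10 to 0.88). With hemin it was at 7.17 and 15.9, a ratio of 1.09 (0.95 to 1.35), or 0.96 with a pseudocount of 2. CDKN1B was at 37.8 and 43.5 without hemin and at 52.9 and 45.0 with hemin, log2 ratios of 0.20 (0.09 to 0.31) and -0.23 (-0.32 to -0.15). Set against the sum of both inhibitors, D cyclin transcripts were 16.0 and 8.66 times as abundant in the controls without and with hemin, and 22.5 and 16.0 times in the knockdowns.

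Hemin was compared with no hemin within each genotype; each of these comparisons shares a library with each knockdown comparison. CDKN1A was the member at least 2-fold higher in both genotypes, 1 of 10, where 2.59% of 10790 genes were in the control and 2.26% of 10817 in the knockdown. Without hemin CDKN1A was under the floor in control and knockdown cells (3.17 and 4.46 scaled TPM). It is thus counted only through its hemin libraries and could not have been called lower. CCND1 was the member at least 2-fold lower in both, 1 of 10, where 2.59% and 1.71% of genes were. The members' median log2 ratio was -0.23 in control and -0.13 in knockdown cells, against -0.01 and 0.00 over all genes.

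CCND1, the D cyclin most tied to growth factor signals, went from 31.7 to 9.86 scaled TPM in control cells and from 30.1 to 8.21 in knockdown cells. The log2 ratios were -1.64 (-1.81 to -1.57) and -1.81 (-2.00 to -1.75), 3.11-fold and 3.51-fold lower, and lower than those of all but 0.6% and 0.2% of genes. CDKN1A went from 3.17 to 7.17 in control and from 4.46 to 15.9 in knockdown cells. Its log2 ratios were 1.06 (0.85 to 1.51) and 1.72 (1.54 to 2.13), and the knockdown with hemin stood above the other 3 libraries. In control cells the call rests on the pseudocount, since 2 in place of 0.5 gave 0.83. Both CDKN1A transcripts in the table, which share most of their reads, gave like values, 1.06 and 1.06 in control and 1.72 and 1.85 in knockdown cells.

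**Figure D4:**
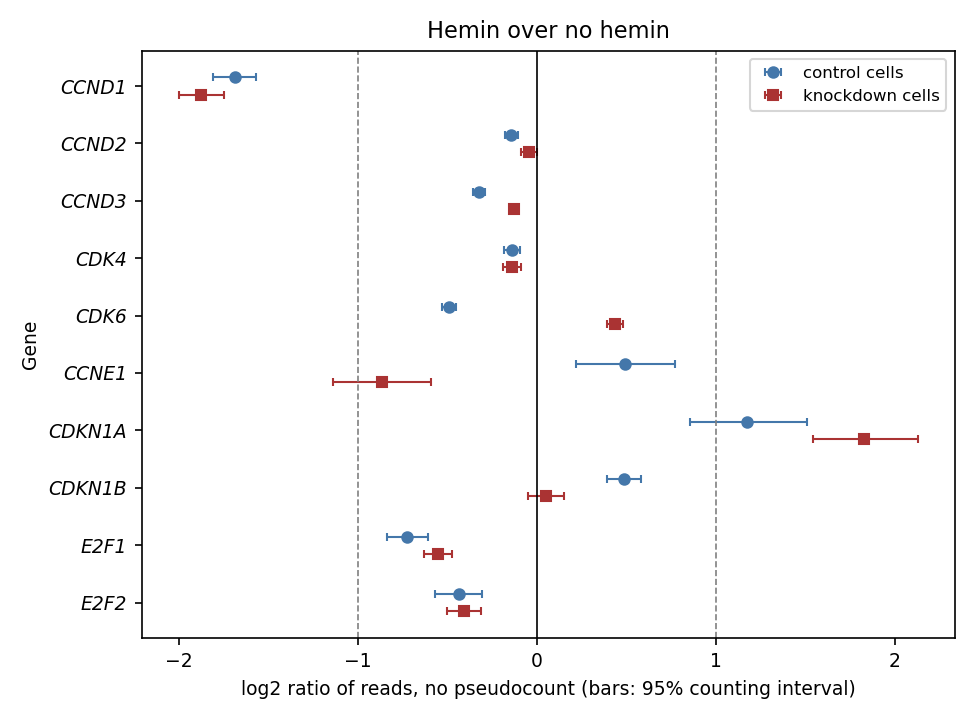
Log2 ratio of hemin over no hemin for each gene (x axis), in control cells (circles) and knockdown cells (squares), from reads without a pseudocount; bars are 95% counting intervals and dashed lines mark 2-fold. CCND1 lies furthest to the left and CDKN1A furthest to the right in both genotypes.

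Both E2F genes were lower with hemin in both genotypes, short of 2-fold. E2F1 had log2 ratios of -0.71 (-0.84 to -0.61) in control and -0.55 (-0.63 to -0.47) in knockdown cells, and E2F2 had -0.42 and -0.40. E2F1 in the knockdown with hemin (50.1) was still above the control without hemin (34.2). CCND3 had -0.32 and -0.13, CDK4 -0.14 and -0.14, and CCND2 -0.14 and -0.05, none near 2-fold. CDK6 had -0.49 in control and 0.43 in knockdown cells. With the length trend removed the values in knockdown cells were 0.25 for CDK6, -0.01 for CDK4 and -0.19 for CCND2. CDKN1B had 0.48 (0.39 to 0.58) in control and 0.05 (-0.05 to 0.15) in knockdown cells, the latter within counting error of 0.

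Hemin responses of the members were also set side by side between genotypes, as the hemin log2 ratio in knockdown minus that in control cells. This difference was over 1 in size for CCNE1 alone among the members, at -1.27 (counting SE 0.19). Of 10323 genes at the floor in all 4 pairs, 5.29% had a difference of at least 1 in size. That set holds 9 of the members, without CDKN1A, which was under the floor in the pair lacking hemin. CCNE1 went from 5.70 to 8.02 with hemin in control and from 9.87 to 5.42 in knockdown cells. CDK6 had 0.92 (counting SE 0.03), or 0.73 with the length trend removed, CDKN1A 0.66 (0.22) and CDKN1B -0.43 (0.07). The other 6 members lay between -0.17 and 0.20, where the median size over the 10323 genes was 0.33. With the length trend removed they lay between -0.20 and 0.25, and CCND2 and E2F2 turned sign (-0.07 and -0.10). CDK4, with no difference before, then had hemin ratios of -0.15 in control and -0.01 in knockdown cells. With 1 library per group these differences have no test.

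The other genes of the pathway were taken from lists of known function, chosen by symbol. Of 25 genes that E2F factors are known to activate, 10 were at least 2-fold higher and 0 lower in the knockdown without hemin. Their median log2 ratio was 0.87. With hemin 19 of 25 were higher and 0 lower, with a median of 1.31. Among all genes, 6.73% and 6.01% were higher after knockdown without and with hemin, and 6.42% and 4.12% lower. These shares also stand beside the knockdown counts of the other lists below. MYBL2, a transcription factor gene of the S and G2 phases, had 1.60 and 2.28, and TK1, thymidine kinase, 1.27 and 1.80. At the other end were MCM7, a subunit of the replicative helicase, at 0.75 and 0.20, and SLBP, the histone mRNA binding protein, at -0.07 and 0.17. Markers of S, G2 and M phases were 2-fold higher for 14 of 19 without and 18 of 19 with hemin, with medians of 1.32 and 1.5 and 0 lower. Among them CDK1 was below 0 without hemin, at -0.465, against 1.02 with hemin. Clustered histone genes were 2-fold higher for 8 of 9 and 6 of 9, with 0 lower. With hemin the E2F target genes had medians of -0.66 in control and -0.29 in knockdown cells, with 3 and 1 of 25 at least 2-fold lower and 0 higher. Over all genes 2.59% and 1.71% were lower. S, G2 and M markers had medians of -0.47 and -0.05 with hemin. Clustered histone genes went the other way, with medians of 0.66 in control and 0.27 in knockdown cells. Of these, 3 of 8 and 0 of 9 were higher and 0 lower, where 2.59% and 2.26% of all genes were higher. What part the poly-A differences between the libraries have in the histone values was not tested.

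The list of other cyclins and CDKs, which also holds CDC25A, CDC25B, CDC25C and MNAT1, was mixed. In the pair lacking hemin 1 of 13 was higher (CDC25A) and 1 lower, close to the shares over all genes. In the other pair 5 of 15 were higher and 2 lower, where 6.01% and 4.12% of all genes were. These lists share genes, so their counts are not separate results. CCNE2 and CDC25A are also among the E2F targets, and CCNA2 and CDK1 among the S, G2 and M markers. CCNG1, lower in both pairs, is also in the p53 list. CDC25A, the phosphatase that activates CDK2, had 1.08 and 1.40 and CCNA2, cyclin A2, 0.71 and 1.43, while CCNG1, a p53-responsive cyclin, had -1.31 and -1.24 and CDK3 -0.74 and -0.96. The INK4 and KIP list also holds CDKN3, which is not of either family. Of its genes, 4 of 6 were in the table and 3 at the floor, with 1 higher in each state. That 1 was CDKN3, and the INK4 genes CDKN2C and CDKN2D did not reach 2-fold. CDKN3, a phosphatase of CDKs, had 2.15 and 2.08, CDKN2C, an INK4 inhibitor of CDK4 and CDK6, 0.87 and 0.92, and CDKN2D, another INK4 gene, -0.53 and -0.15. The list of pocket proteins and E2F or DP genes also holds LIN9, LIN37, LIN52, LIN54, RBBP4 and MYBL2. It had medians of -0.06 and 0.00, with 1 of 15 and 3 of 16 higher and 0 lower. The 1 without hemin was MYBL2, which is also among the 3 with hemin and in the E2F target list. Among the genes of that list at the floor in both states, MYBL2 and the repressor gene E2F8 (0.66 and 1.70) were highest by their mean, and RBL2, the pocket protein p130 of resting cells (-0.94 and -0.90), and LIN37, a DREAM complex subunit (-0.06 and -0.98), lowest.

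The list for ubiquitin ligases of G1 regulators also holds CKS1B, CKS2, FBXO5, USP2 and USP28. It had medians of 0.32 and 0.27, with 0 of 17 and 2 of 17 higher and 0 lower. The 2 were CKS1B and FBXO5 (1.26 with hemin). CKS1B, the cofactor for p27 destruction, had 0.65 and 1.21 and CKS2 0.90 and 0.71, while SKP1 had -0.80 and -0.25 and DDB1 -0.74 and -0.90. The p53 pathway, which can induce CDKN1A, had medians of -0.27 and 0.10, with 1 of 18 higher and 4 lower in the pair lacking hemin, then 0 higher and 3 lower. BAX had 1.12 and 0.47 and GADD45A 0.84 and 0.36, and BBC3 (-1.68 and -2.02) and SESN2 (-1.67 and -1.43) were lowest. Regulators upstream of the D cyclins had medians of -0.09 and -0.28, with 2 of 13 higher and 2 lower in each state. As above, 6.73% and 6.01% of all genes were higher without and with hemin, and 6.42% and 4.12% lower.

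**Figure D5:**
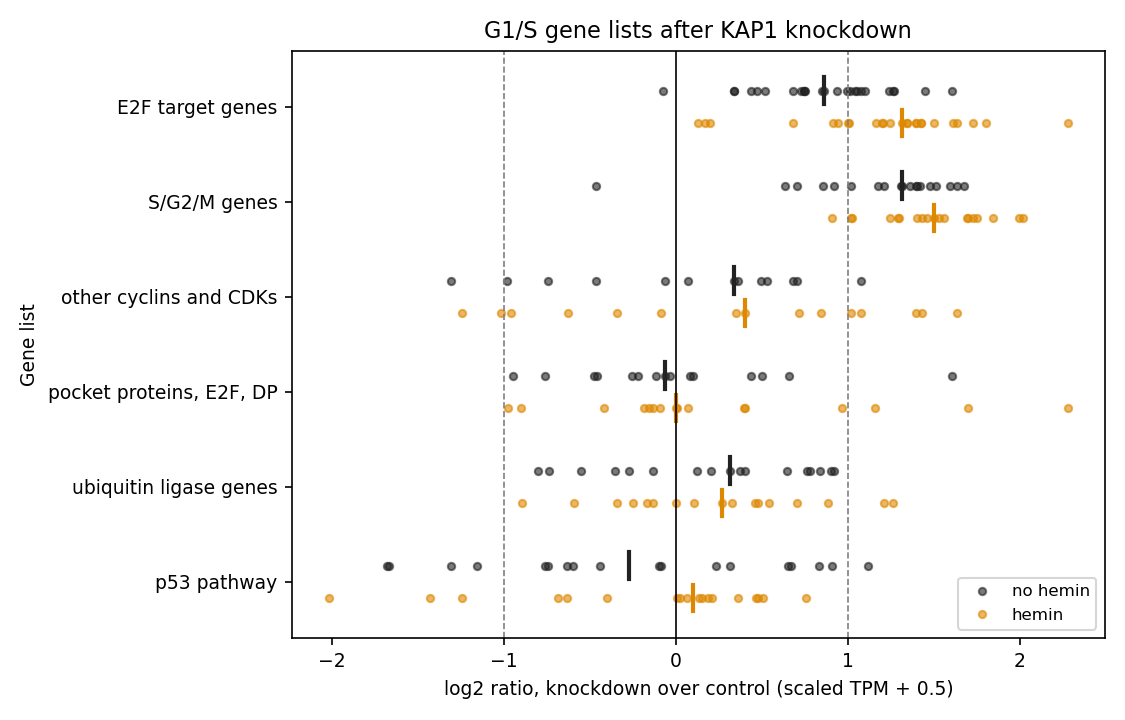
Log2 ratio of knockdown over control (x axis) for the genes of 6 lists at the floor, without hemin (black) and with hemin (orange); each point is a gene, vertical bars are list medians and dashed lines mark 2-fold. E2F target genes and S/G2/M genes lie to the right, apart from SLBP and CDK1 without hemin, with medians from 0.87 to 1.5. The genes of the other 4 lists lie on both sides of 0.

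Genes of like pattern were sought for the 3 members with the widest range, by the root mean square difference between log2 profiles centred over the 4 libraries. For E2F1 the nearest were MCM3 (0.01), SLAMF8 (0.05) and ALDH16A1 (0.05); MCM3, a helicase subunit gene, was at 134, 81.4, 289 and 193 scaled TPM in control without and with hemin and knockdown without and with hemin. For CCND1 they were CXCR4 (0.15), TRAF3IP3 (0.17) and CAPN5 (0.17), and CXCR4, a chemokine receptor gene, was at 27.1, 7.63, 28.0 and 8.50 in the same order. For CDKN1A they were MAP9 (0.14), MGST1 (0.15) and CYP1A1 (0.16), and MGST1, a glutathione transferase gene, was at 67.8, 137, 87.8 and 232. With 4 libraries such likeness is a description only.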

How the data were processed

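The authors deposited RPKM values for RefSeq transcripts, as per the file headers. The submitters' processing notes name Bowtie and hg19; no source used here gives the other steps. Of 24538 rows, 24533 gave whole reads (tolerance 0.0002 reads plus a relative 4e-09) after division by a factor per library, so the values were not scaled to depth. The other 5 rows, TRIM28 among them, hold whole numbers. Each gene stood for its transcript with the highest mean. Values were divided by the read total times a trimmed-mean factor (TMM, trims of 0.3 and 0.05) and brought to a mean sum of 1000000 (scaled TPM). Log2 ratios used a pseudocount of 0.5. Counts took genes whose higher library reached 5 scaled TPM and a 2-fold limit. Computation used Python 3.11.15 and scipy 1.17.1 and was tested on simulated data. The members, lists and tests were chosen with earlier results of these data known. From 6 lists (other cyclins and CDKs, INK4 and KIP inhibitors, pocket proteins and E2F or DP, E2F targets, ubiquitin ligases, p53 pathway) the 2 genes with the largest and the 2 with the smallest mean knockdown ratio, among those at the floor in both states, were named. Genes of like pattern were the 3 nearest to each of the 3 members with the widest range. Alternatives were 3 other scalings, 2 other transcript choices, 2 pseudocounts, 2 floors, a 1.5-fold limit and, chosen after seeing the data, removal of a length trend (running median over 501 genes). Replicates and p-values are lacking, and reads are not independent molecules.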

Additional observations from a re-analysis of the deposited data

Results flagged for a closer look

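CDK6, CCNE1 and CDKN1B had knockdown ratios on opposite sides of 0 in the 2 activation states, each with a counting interval off 0. The log2 ratios of knockdown over control without and with hemin were -0.69 and 0.24 for CDK6, 0.74 and -0.53 for CCNE1, and 0.20 and -0.23 for CDKN1B. For CDK6 and CCNE1 the hemin ratios in control and knockdown cells also lay on opposite sides of 0, at -0.49 and 0.43 for CDK6 and at 0.46 and -0.81 for CCNE1; these are the same 4 libraries seen the other way. With 1 library per group the differences were not tested. With the length trend removed CDK6 moved by over 1.5 times in its knockdown ratio without hemin (-0.44) and its hemin ratio in knockdown cells (0.25), and each of its 4 ratios stayed on the same side of 0.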

How the results depend on the processing

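Scaling by plain totals or equal medians, another transcript choice, a pseudocount of 0.1 and removal of the length trend (chosen after seeing the data) left every count of genes or members past 2-fold within 1.5 times its main value. Of the 40 member ratios, 1 changed sign with plain totals, 2 with the length trend removed, 11 with unscaled deposited values and 0 under the other settings, and none of these was past 2-fold. List medians also moved. After knockdown without hemin, plain totals gave 0.98 for E2F targets, and 0.07 and 0.02, with the sign turned, for the pocket protein and E2F list and the upstream regulators. Deposited values gave 0.29 for E2F targets and 0.75 for S, G2 and M markers in that pair.
With the deposited values as they stand, which carry library depth, 0 members were higher and 2 lower after knockdown without hemin and 2 higher and 0 lower with hemin in knockdown cells. All genes then gave 145 higher and 2441 lower (knockdown without hemin), 1107 and 298 (knockdown with hemin), 453 higher (hemin in control) and 5026 and 11 (hemin in knockdown). A pseudocount of 2 left 1 and 2 members higher after knockdown without and with hemin and 0 with hemin in control cells, and gave 152 higher and 122 lower genes for hemin in knockdown cells. A floor of 20 left 2 members higher after knockdown with hemin and 0 higher for hemin in either genotype, since CDKN1A is then not counted; all genes gave 484 and 452, 405 and 275, 174 and 168, and 115 and 85, higher and lower, in the same order. No floor gave 675 lower genes after knockdown with hemin, and 384 higher and 297 lower for hemin in knockdown cells. A 1.5-fold limit gave 4 members higher and 2 lower after knockdown without hemin and 2 lower for hemin in either genotype; all genes gave 1928 and 1849, 1638 and 1391, 996 and 887, and 1305 and 1158.
No paired analysis was possible because each group is 1 library, and no replicate could be left out. CCNE1 and CDKN1A are limited by few reads, and intervals cover counting error only.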
